A study of Mus musculus with 16 samples.

Results

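Expression of 10 genes of the endoplasmic reticulum (ER) and amino acid stress responses was followed through 12 RNA sequencing libraries from germline stem cells of male mice grown in culture, the counterparts of the stem cells that sustain spermatogenesis. The genes were taken by name: the transcription factors Atf4, Ddit3, Atf3 and Xbp1, the amino acid and growth control genes Asns, Trib3, Chac1 and Sesn2, and the ER genes Hspa5 and Herpud1. They are 10 of the 27128 genes in each deposited table, and all 10 were among the 14301 genes compared, whose level averaged at least 1 CPM (expected counts scaled to a common library total, with TMM factors).

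As background, unfolded proteins in the ER are sensed by PERK, IRE1 and ATF6. PERK, and the kinase GCN2 when amino acids run short, phosphorylate the initiation factor eIF2, which lowers bulk translation but raises translation of Atf4 mRNA. ATF4 then drives genes of amino acid supply and, with its target Ddit3 (CHOP), genes of cell death, while IRE1 splices Xbp1 mRNA and ATF6 and XBP1 raise ER chaperones and degradation factors. Much of this control acts on translation, splicing and protein cleavage, none of which a gene-level RNA table measures.

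All cells came from mice at postnatal day 5.5 that carried the transgene Tg(Pou5f1-EGFP)2Mnn/J on a B6;CBA background, in which the promoter of Pou5f1 (Oct4) drives EGFP. Germ cells positive for the reporter and negative for KIT were sorted, and their medium held no serum but GDNF, bFGF and EGF. The feeder-removal experiment had cells on mouse embryonic fibroblast (MEF) feeders (day 0) and cells 4 and 9 days after transfer to Matrigel, a basement membrane extract. The density experiment had cells on Matrigel at 0.1 µg/cm2 (epithelial-like) and at 10 µg/cm2 (mesenchymal-like). The sorted experiment took cells from Matrigel at 10 µg/cm2 and parted them by reporter level into GFP-low, GFP-mid and GFP-high. The inhibitor experiment had cells on MEF with DMSO, the solvent, or with UNC0638, an inhibitor of the histone methyltransferases G9a and GLP, at 0.5, 1 or 2 µM for 48 hours; how long DMSO was given is not stated. With 1 library in each group, differences could not be set against replicate spread, and p-values are not given. The labels do not say how many animals or cultures a library stands for.

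Library totals ran from 4335185 to 12019651 counts. Germ cell identity was measured by 19 marker genes, whose summed level was 5457 to 7591 CPM, and Ddx4, a germ cell RNA helicase, was at 416 to 870 CPM in every library. Other cells were also represented. The summed level of 20 fibroblast markers was 159 to 407 CPM in 7 libraries, but 7332 in the mesenchymal-like one, and 3782, 1341, 572 and 756 with DMSO and 0.5, 1 and 2 µM UNC0638. Fap was at 0 counts in every library except that with 1 µM. The summed level of 15 myeloid markers was 2083 and 1928 CPM in GFP-low and GFP-mid, 240 in GFP-high and 10.4 to 52.4 elsewhere, and that of 11 Sertoli and Leydig cell markers was 10.5 to 36.0 CPM. In bulk RNA, fewer cells of a type and less RNA per cell cannot be told apart. No group was shared between experiments, and effects of experiment and of technical batch cannot be told apart.

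The regions before the gene starts are shown first because the 10 genes differ in whether these hold the stress elements searched for here. All 10 matched a RefSeq promoter entry (build GRCm38.p6), and the 250 bases before the start were searched on both strands for the C/EBP-ATF response element bound by ATF4 (CARE, TGATGNAA), the unfolded protein response element (UPRE, TGACGTGG) and the ER stress element (ERSE, CCAAT and CCACG separated by 9 bases). CARE matched in Asns, Atf3, Chac1 and Herpud1, and ERSE in Hspa5. The matches are in capitals, each sequence reads 5′ to 3′ in the direction of its gene, and the last base lies directly before the start. The windows are chr6:7693210-7693459 on the minus strand, chr1:191183334-191183583 on the minus strand, chr2:119350992-119351241 on the plus strand, chr8:94386179-94386428 on the plus strand and chr2:34771840-34772089 on the plus strand.
Asns: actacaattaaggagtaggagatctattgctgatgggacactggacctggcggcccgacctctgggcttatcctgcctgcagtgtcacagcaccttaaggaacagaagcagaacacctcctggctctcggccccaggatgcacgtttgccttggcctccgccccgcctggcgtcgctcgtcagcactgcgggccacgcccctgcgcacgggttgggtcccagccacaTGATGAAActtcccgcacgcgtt
Atf3: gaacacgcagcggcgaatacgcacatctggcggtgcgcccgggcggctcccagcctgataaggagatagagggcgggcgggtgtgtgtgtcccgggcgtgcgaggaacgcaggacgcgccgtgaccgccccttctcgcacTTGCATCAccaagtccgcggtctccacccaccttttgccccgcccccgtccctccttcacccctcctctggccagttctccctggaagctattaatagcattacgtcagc
Chac1: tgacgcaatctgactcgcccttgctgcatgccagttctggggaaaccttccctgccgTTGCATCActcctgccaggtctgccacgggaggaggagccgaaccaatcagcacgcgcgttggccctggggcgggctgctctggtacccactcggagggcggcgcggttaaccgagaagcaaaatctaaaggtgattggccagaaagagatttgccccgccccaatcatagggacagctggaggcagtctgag
Herpud1: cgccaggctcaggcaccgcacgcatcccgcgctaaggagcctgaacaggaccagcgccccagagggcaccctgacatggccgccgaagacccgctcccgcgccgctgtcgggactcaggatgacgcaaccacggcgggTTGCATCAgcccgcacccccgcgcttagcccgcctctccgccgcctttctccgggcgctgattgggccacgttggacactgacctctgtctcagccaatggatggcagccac
Hspa5: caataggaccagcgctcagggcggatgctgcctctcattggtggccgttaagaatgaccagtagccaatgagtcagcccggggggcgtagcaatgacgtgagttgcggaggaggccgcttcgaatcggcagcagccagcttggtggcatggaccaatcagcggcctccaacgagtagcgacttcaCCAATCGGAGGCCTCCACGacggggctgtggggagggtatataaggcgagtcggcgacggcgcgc

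In Asns the CARE match lay from 23 to 16 bases before the start on the gene's own strand. In Atf3 it lay from 110 to 103, in Chac1 from 193 to 186 and in Herpud1 from 112 to 105 bases before the start, each on the opposite strand with the same 8 letters. The ERSE match of Hspa5 lay from 65 to 47 bases before the start. No window of the 10 held UPRE, no match overlapped another, and 5 genes (Atf4, Ddit3, Xbp1, Trib3 and Sesn2) held none of the 3 elements in this window. Of 32851 mouse RefSeq windows of the same length, 3.45% held CARE, 0.563% UPRE and 0.113% ERSE. These are matches of letters in the exact forms given. Other forms of these elements and other stress elements were not searched, and binding was not measured here.

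Across the 12 libraries the ER chaperone was abundant and steady, whereas Atf4 and its amino acid target Asns differed most between experiments and in different order. Hspa5 (BiP, the main ER Hsp70 chaperone) had the highest length-scaled level (deposited TPM) of the 10 genes in 12 of 12 libraries, at 426 to 725 TPM. Atf3 and Chac1 were the lowest pair in 12 of 12, with 0.19 to 3.41 TPM for Atf3 and 1.91 to 7.25 TPM for Chac1. The log2 range of the medians of the 4 experiments was 2.01 for Atf4, 1.68 for Asns, 1.25 for Trib3 and 1.12 for Sesn2, against 0.68 for Xbp1, 0.58 for Herpud1 and 0.52 for Hspa5. Within an experiment the Atf4 range was never above 0.41.

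**Figure D1:**
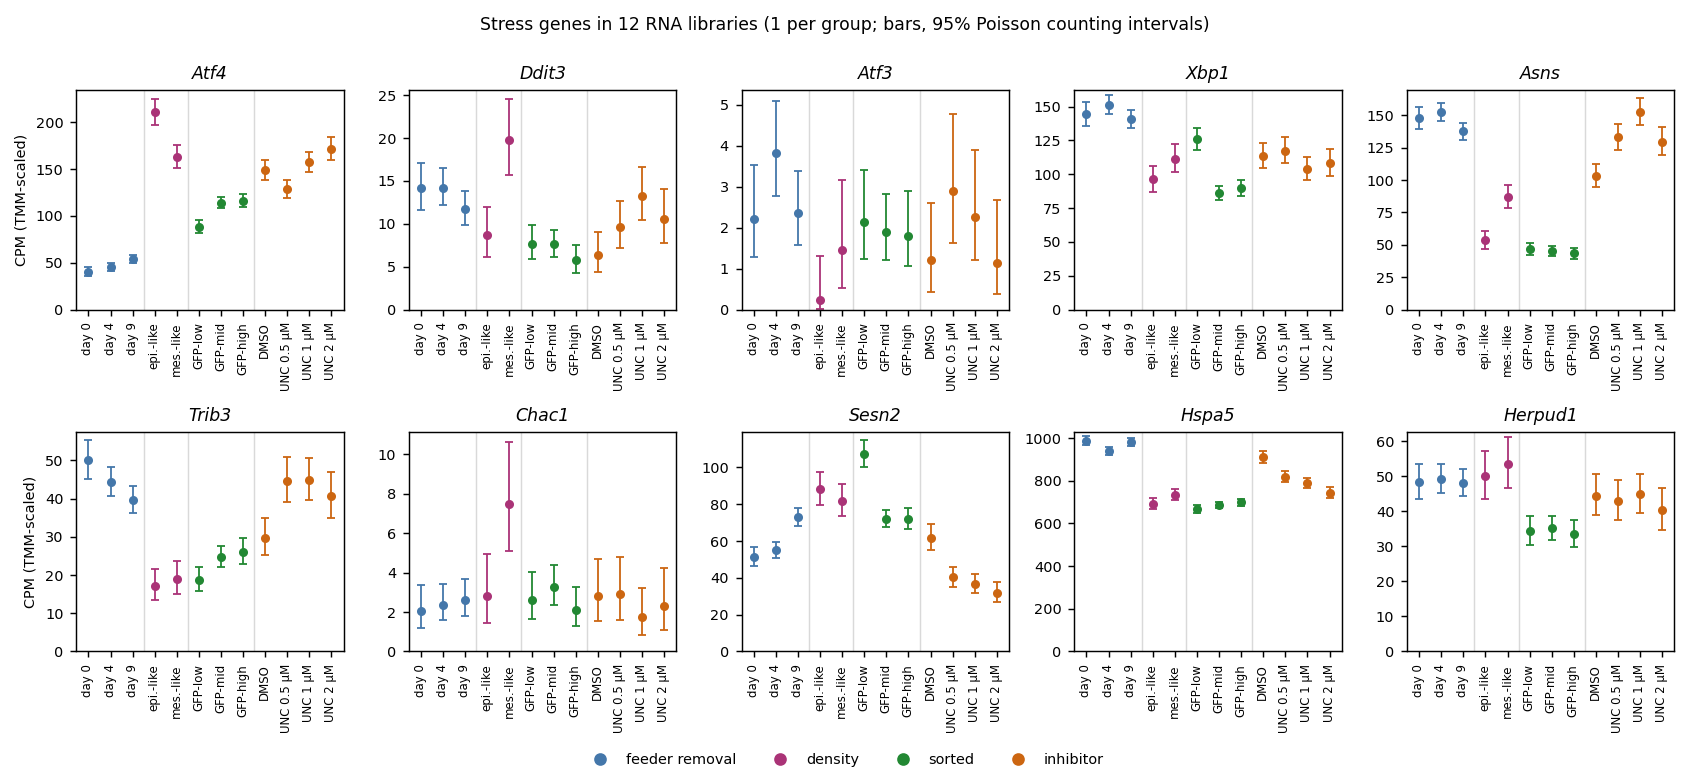
Level of each of the 10 genes (vertical axis, TMM-scaled CPM on a linear scale from 0) in the 12 libraries (horizontal axis), coloured by experiment, with bars for the 95% Poisson counting interval. Atf4 was lowest in the 3 feeder-removal libraries and highest in the epithelial-like one, and Sesn2 was lower at each UNC0638 dose than with DMSO.

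Atf4, the translationally controlled factor at the centre of the response, was at 40.4, 45.4 and 53.6 CPM at days 0, 4 and 9, and at 211 CPM in the epithelial-like and 163 CPM in the mesenchymal-like library. It was at 88.7, 114 and 116 CPM in GFP-low, GFP-mid and GFP-high, and at 149, 129, 158 and 171 CPM with DMSO and 0.5, 1 and 2 µM UNC0638. Every feeder-removal library was below every other library. Of the 11 neighbouring pairs in the order of levels, 5 had a counting interval of their ratio that held 0.

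Asns, the enzyme that makes asparagine and a standard ATF4 target, had another order. It was at 148, 152 and 138 CPM at days 0, 4 and 9, at 53.5 CPM in the epithelial-like and 86.9 CPM in the mesenchymal-like library, and at 46.6, 45.4 and 43.4 CPM in GFP-low, GFP-mid and GFP-high. With DMSO and 0.5, 1 and 2 µM UNC0638 it was at 103, 133, 153 and 130 CPM. The feeder-removal and UNC0638 libraries thus held the high levels and the sorted fractions the low ones, and 8 of 11 neighbouring pairs had an interval that held 0.

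On the TPM scale, Asns exceeded Atf4 in the feeder-removal libraries and lay below it in all others. Asns TPM per Atf4 TPM was 3.24, 2.97 and 2.28 at days 0, 4 and 9, and 0.225 in the epithelial-like library. The ratio was 0.473 in the mesenchymal-like library and 0.331 to 0.466 in the sorted fractions. It was 0.613 with DMSO and 0.918, 0.859 and 0.671 with 0.5, 1 and 2 µM. Trib3, a pseudokinase induced by ATF4 that restrains it, had 1.03, 0.809 and 0.614 TPM per Atf4 TPM at days 0, 4 and 9 and 0.0675 in the epithelial-like library.

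**Figure D2:**
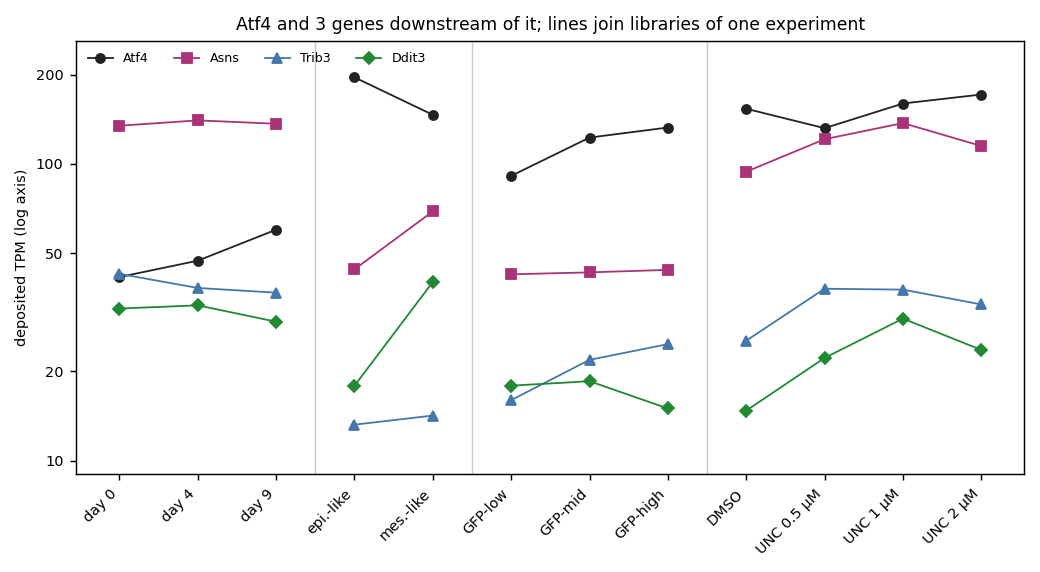
Deposited TPM (vertical axis, log scale) of Atf4, Asns, Trib3 and Ddit3 in the 12 libraries (horizontal axis), with lines joining the libraries of each experiment. Atf4 was at 41.5 TPM and Asns at 134 TPM at day 0, and at 196 and 44.1 TPM in the epithelial-like library.

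In the inhibitor series the libraries with UNC0638 were compared with the DMSO library. The activity of G9a and GLP was not measured here. None of the 10 reached 2-fold at any dose: 0 of 10 at 0.5 µM, where 3.71% of all genes did, 0 of 10 at 1 µM (6.71% of all genes) and 0 of 10 at 2 µM (7.01%). The changes were in different directions among the genes. Sesn2 and Hspa5 were below DMSO at each dose, and Asns and Trib3 above it, all beyond counting error. The counting interval, the 95% Clopper-Pearson interval of how the reads split between a pair of libraries, excluded 0 for 5 of 10 genes at 0.5 µM (24.9% of all genes), 5 at 1 µM (32.1%) and 6 at 2 µM (38.8%). The median log2 ratio of the 10 was 0.04, 0.04 and -0.05, against -0.01, -0.00 and -0.02 over all genes tested. Intervals and detection floors cover counting error only: the reads were amplified and carry no molecular identifiers, so they do not each stand for a molecule.

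Sesn2, a leucine sensor that restrains mTORC1 and is induced by ATF4 and by p53, was at 61.9 CPM with DMSO and at 40.2, 36.8 and 31.8 CPM with 0.5, 1 and 2 µM. The log2 ratio to DMSO was -0.61 (interval -0.88 to -0.36), -0.73 (-1.01 to -0.49) and -0.94 (-1.26 to -0.67). Each dose was lower than the one before, although neither step, from 0.5 to 1 or from 1 to 2 µM, was beyond counting error. With ratios centred on the germ cell markers the values were -0.78, -0.76 and -0.79, with no order by dose. The 3 libraries with the inhibitor had the lowest Sesn2 levels of the 12. The fibroblast sum was 3782 CPM with DMSO and 1341, 572 and 756 CPM at the 3 doses, and 13, 19 and 16 of 19 tested fibroblast markers were at least 2-fold lower at 0.5, 1 and 2 µM. The part of these cells in the inhibitor results was not tested.

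In TMM-scaled CPM, Asns and Trib3 were higher at all 3 doses without a steady order. The log2 ratio of Asns to DMSO was 0.37 (0.20 to 0.54) at 0.5 µM, 0.56 (0.41 to 0.72) at 1 µM and 0.33 (0.15 to 0.50) at 2 µM. From 1 to 2 µM it was lower by more than counting error (-0.23, -0.39 to -0.08). Trib3 was at 29.7 CPM with DMSO and at 44.7, 44.9 and 40.5 CPM at the 3 doses, ratios of 0.57 (0.28 to 0.89), 0.58 (0.30 to 0.89) and 0.43 (0.12 to 0.77). Its levels at the 3 doses lay within counting error of each other from each dose to the next. Centring on the germ cell markers shifts all ratios by -0.17, -0.02 and 0.15 at 0.5, 1 and 2 µM. The Trib3 ratios then rise with dose, while those of Asns still have no steady order. Atf4 itself was lower at 0.5 µM (-0.21, -0.37 to -0.06), within counting error at 1 µM (0.08, -0.06 to 0.22) and higher at 2 µM (0.20, 0.05 to 0.35).

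Ddit3, the pro-apoptotic factor CHOP, was at 6.39 CPM with DMSO and at 9.63, 13.3 and 10.5 CPM with 0.5, 1 and 2 µM. These levels rest on 32, 50, 76 and 46 counts. The log2 ratio was 0.52 (-0.08 to 1.28), 0.95 (0.44 to 1.70) and 0.64 (0.04 to 1.42), so the 2 higher doses were above DMSO beyond counting error. Without the pseudocount the fold at 1 µM was 2.08. By the 2-fold rule, on CPM + 1, none of these passed.

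Hspa5, at 911 CPM with DMSO and 820, 788 and 743 CPM at the 3 doses, was lower by small but well-counted amounts: -0.15 (-0.21 to -0.09), -0.21 (-0.27 to -0.15) and -0.29 (-0.36 to -0.23). Centred on the germ cell markers they were -0.32, -0.23 and -0.15, in the opposite order by dose. The other ER gene, Herpud1, which recruits the degradation machinery to the ER membrane, was at 44.5, 42.9, 44.9 and 40.3 CPM and its interval held 0 at each dose. The intervals of Xbp1 (114, 117, 104 and 108 CPM) also held 0 at each dose. Atf3, an immediate stress factor, had 6, 15, 13 and 5 counts, and Chac1, which degrades glutathione, had 14, 15, 10 and 10. The intervals of both held 0 at each dose, and that of Atf3 at 0.5 µM ran from -0.18 to 2.92.

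**Figure D3:**
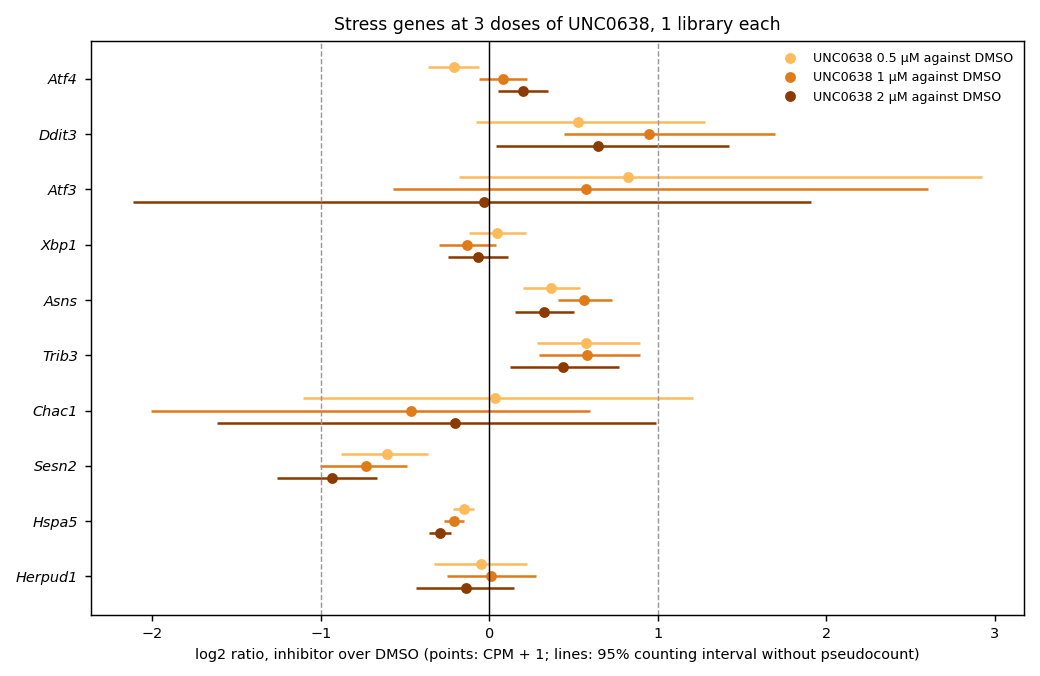
Log2 ratio of each gene at 0.5, 1 and 2 µM UNC0638 over DMSO (horizontal axis; points, CPM + 1; lines, 95% counting interval; dashed lines, 2-fold). Sesn2 lies left of 0 at all 3 doses, to -0.94 at 2 µM, and no point is past 2-fold.

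Of 190 genes tested on 12 lists, 4 rose at least 2-fold and 5 fell at 2 µM (3.42% and 3.59% of all genes), 4.74% in all against 7.01% of all genes. Among 12 tested ATF4 target genes, partner factors and regulators, none was 2-fold higher and Nupr1, a small stress-induced chromatin protein, was lower: 16.4 CPM with DMSO and 6.93, 3.84 and 5.04 CPM at the 3 doses, a log2 ratio of -1.52 (-2.45 to -1.01) at 2 µM. None of the 21 stress sensors and eIF2 control genes, 23 ER chaperones and folding enzymes or 18 ER-associated degradation genes passed 2-fold either way, and their medians were -0.08, -0.01 and 0.01. None of 21 genes on the cytosolic tRNA synthetase list, which also holds the tRNA export gene Xpot, passed either. On that list 19 of 21 were below 0 with a median of -0.30. Likewise, 16 of 18 genes of ER translocation and secretory transport were below 0 with a median of -0.26. With ratios centred on the germ cell markers these counts were 14 of 21 and 14 of 18. On the tRNA synthetase list 12 of 21 were above 0 at 0.5 µM, with a median of 0.02, and 16 of 21 below 0 at 1 µM. With ratios centred on the germ cell markers, which lowers each by 0.17 at 0.5 µM, that median is below 0. The contrast between doses thus depends on the scaling. Of the secretory transport genes, 16 and 14 of 18 were below 0 at 0.5 and 1 µM.

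In the same comparison 16 of 19 tested fibroblast markers were at least 2-fold lower, and their part in the list values at 2 µM was not tested. At 1 µM, 4 list genes rose and 6 fell, 5.26% in all against 6.71% of all genes, and at 0.5 µM, 1 rose and 4 fell, 2.63% against 3.71%. The genes that rose at 1 µM were Bbc3 (7 and 50 counts, log2 ratio 2.02), Edem1 (139 and 392 counts, 1.27), Gclm (1.18) and Gadd45a (1.08). Of these, only Gclm also passed 2-fold at another dose. The 6 that fell at 1 µM were Zmat3 (-2.18), Nupr1 (-1.84), Stc2 (-1.69), Hspa1b (-1.58), Cdkn1a (-1.24) and Phlda3 (-1.01). Stc2 had 14 counts with DMSO and 1 at 1 µM, and Hspa1b 10 and 0. The genes at 1 µM were named after their values were seen. Outside the ER lists, Gclm, a subunit of the enzyme that limits glutathione synthesis, rose from 41.5 CPM with DMSO to 90.3 CPM at 2 µM (log2 ratio 1.10, 0.87 to 1.37). It was the 1 gene of 11 on the NRF2 list past 2-fold. None of 13 heat shock genes passed 2-fold. Among 14 immediate early genes, Ier3 rose (1.04) and Myc fell (-1.31). Among 13 p53 targets, Zmat3 fell (-1.09), and Perp, on 10 and 25 counts, rose (1.17). In the amino acid lists the genes past 2-fold had few counts: Pycr1 (29 counts with DMSO and 8 at 2 µM), Slc7a3 (10 and 1) and Slc7a11 (4 and 12). Perp, Pycr1, Slc7a3 and Slc7a11 are named because they were counted, after their values were seen.

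In the density experiment 2 pro-apoptotic stress genes, Ddit3 and Chac1, passed 2-fold and were higher in the mesenchymal-like culture. Ddit3 was at 8.68 CPM (37 counts) in the epithelial-like and 19.8 CPM (82 counts) in the mesenchymal-like library, a log2 ratio of 1.10 (0.61 to 1.79). Chac1 was at 2.82 CPM (12 counts) and 7.48 CPM (31 counts), a ratio of 1.15 (0.41 to 2.51). The mesenchymal-like library had the highest level of all 12 for both genes. In the sorted experiment, also from Matrigel at 10 µg/cm2, Ddit3 was at 7.65, 7.60 and 5.73 CPM in GFP-low, GFP-mid and GFP-high. Chac1 was at 2.63, 3.25 and 2.12 CPM in the same fractions. With 2 of 10 members at least 2-fold higher and 0 lower, the share stands beside 12.5% of all genes either way, 10.7% higher and 1.78% lower. With a pseudocount of 5, 0 of 10 passed, and with 0.1, with DESeq2 size factors or with ratios centred on the germ cell markers, 3 of 10, Atf3 being the added gene. The interval excluded 0 for 6 of the 10 (42.8% of all genes), 5 higher and 1 lower, and the median of the 10 was 0.18 against -0.06 over all genes.

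Asns was higher in the mesenchymal-like culture (0.69, 0.46 to 0.95), while Atf4 was lower (-0.37, -0.52 to -0.23), although with ratios centred on the germ cell markers its ratio was -0.09 and the interval held 0 (-0.23 to 0.06). Trib3 (17.1 and 19.1 CPM), Sesn2 (88.3 and 81.9 CPM) and Herpud1 (49.99 and 53.6 CPM) were within counting error. Xbp1 (96.2 and 111 CPM) and Hspa5 (693 and 734 CPM) were higher by 0.21 and 0.08, beyond counting error, but within it with total counts or TPM. Atf3 had 1 and 6 counts, and its ratio of 0.99 had an interval of -0.42 to 8.15, too wide to read.

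The fibroblast sum differed 361 to 7332 CPM between these libraries, and 18 of 19 tested fibroblast markers were at least 2-fold higher in the mesenchymal-like one. Of 15 myeloid markers, 14 were above 0 and 4 at least 2-fold higher there, and 17 of 19 germ cell markers were below 0 with a median of -0.28. The part of these cell types in the Ddit3, Chac1 and Asns differences was not tested.

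Of the list genes in this pair, 24 of 190 rose at least 2-fold and 2 fell, 13.7% in all against 12.5% of all genes. Of the 12 ATF4 targets, partner factors and regulators, Nupr1 (1.17 and 15.9 CPM, log2 ratio 2.96), Atf5 (2.04) and Bbc3 (1.46) were higher, and the median was 0.73. Atf5 and Bbc3, which encodes the death effector PUMA, had fewer than 50 counts and were named after their values were seen. Of 18 degradation genes, Os9, an ER lectin, was at 18.5 and 77.0 CPM (2.00), Edem1, which trims mannose from misfolded glycoproteins, at 34.3 and 86.2 CPM (1.31), and 17 of 18 were above 0. Of 23 chaperones and folding enzymes, Txndc5 (1.18) and Fkbp11 (1.09) were higher and the oxidase Ero1lb lower (-1.09). In secretory transport, the COPII coat gene Sec24d (2.15) and the signal peptidase gene Spcs1 (1.41) were higher.

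Genes of the p53, NRF2, heat shock and immediate early lists also passed 2-fold in that pair. Of 13 p53 targets, 5 were higher, led by Phlda3 (10.3 and 163 CPM, 3.85), Perp (4.69 and 69.5 CPM, 3.63) and Ccng1 (66.0 and 553 CPM, 3.05). Cdkn1a (2.69) and Zmat3 (2.83), named after their values were seen, complete the 5. Of 11 NRF2 genes, 4 were higher: Nqo1 (2.29), Srxn1 (1.70), Gclm (1.12) and Mod1, the malic enzyme Me1 (1.08, named after its value was seen). Of 13 heat shock genes, Hspb1 (6.10 and 185 CPM, 4.71) and Bag3 (1.30) were higher and Hspa1b, on 22 and 5 counts, lower (-1.48); its reads may be shared with the near-identical Hspa1a. Of 14 immediate early genes, Klf6 (2.92) and Myc (2.62) were higher. In the amino acid lists Pycr1 (1.42) and Slc7a11 (1.23) were higher, each on fewer than 50 counts, and these, like Hspa1b, were named after their values were seen. None of 21 genes on the tRNA synthetase list or 21 sensors and eIF2 control genes passed 2-fold. The same fibroblast difference stands beside all of these, and its part was not tested.

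**Figure D4:**
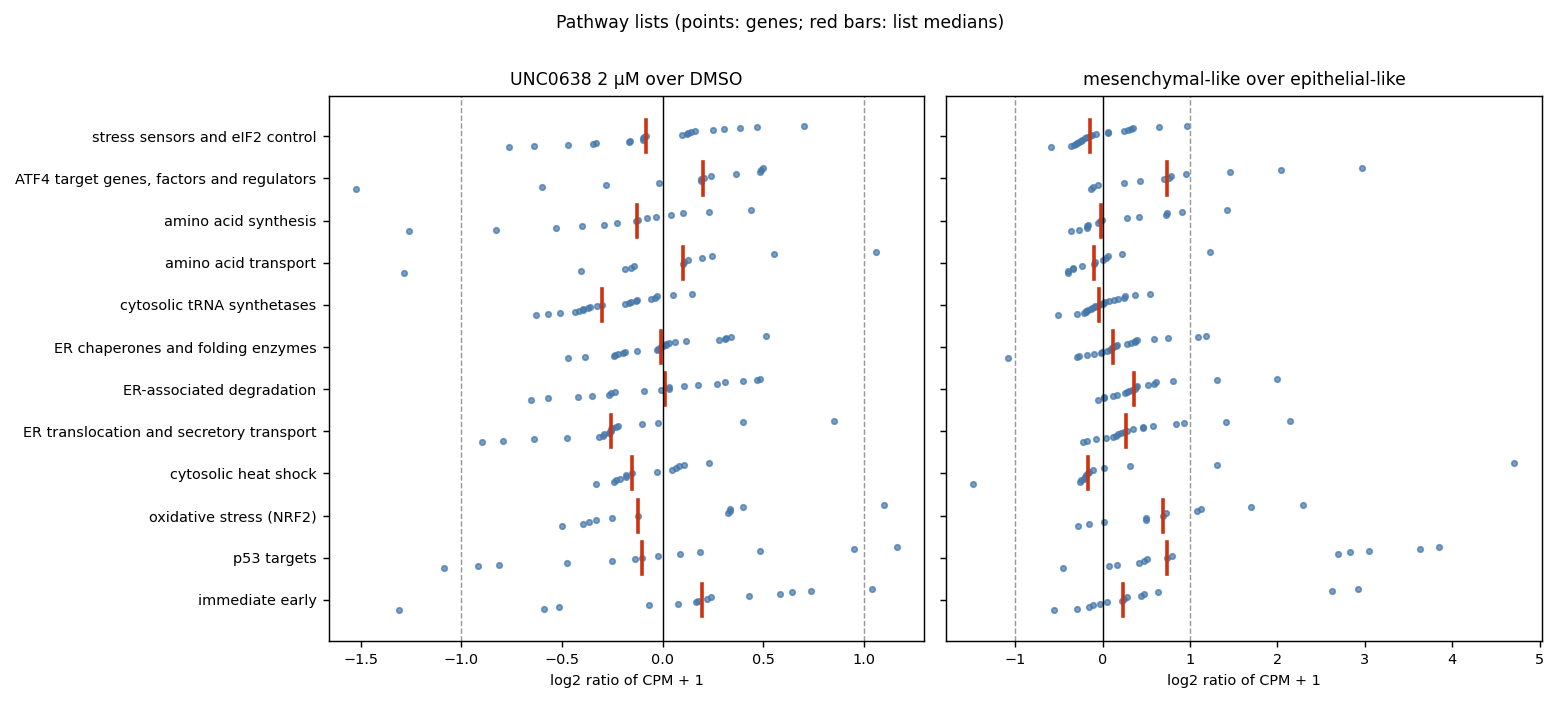
Log2 ratio of CPM + 1 (horizontal axis) of the tested genes of 12 pathway lists (rows) at 2 µM UNC0638 over DMSO (left) and in the mesenchymal-like over the epithelial-like library (right), with points for genes, red bars for medians and dashed lines at 2-fold. At 2 µM the medians lie between -0.30 and 0.20, while the mesenchymal-like comparison has medians of 0.73 for the ATF4 list (targets, factors and regulators) and the p53 list.

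After feeder removal the stress genes stayed near their day 0 levels. None reached 2-fold at day 4 (0 of 10, against 2.28% of all genes) or day 9 (0 of 10, against 2.6%). The interval excluded 0 for 1 gene at day 4 (34.5% of all genes), Hspa5 at -0.07, and for 3 at day 9 (40.6%). Sesn2 was at 51.5, 54.9 and 73.0 CPM at days 0, 4 and 9, a day 9 ratio of 0.50 (0.33 to 0.68), and Atf4 was higher by 0.40 (0.21 to 0.61). Trib3 was at 50.04, 44.3 and 39.7 CPM, lower at day 9 by -0.33 (-0.53 to -0.14). Ddit3 stayed at 11.7 to 14.2 CPM, Xbp1 at 141 to 151 and Herpud1 at 48.1 to 49.3. Leaving the feeder layer moved the fibroblast sum little (393 to 407 CPM).

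Among the sorted fractions, Sesn2 and Xbp1 were highest in GFP-low cells, and Atf4 and Trib3 lowest there. None of the 10 reached 2-fold in GFP-mid (4.07% of all genes) or GFP-high (9.54%) against GFP-low. The interval excluded 0 for 4 genes in GFP-mid (48.1% of all genes) and 5 in GFP-high (55.5%). Sesn2 was at 107, 72.1 and 72.1 CPM in GFP-low, GFP-mid and GFP-high, with a GFP-high ratio of -0.57 (-0.72 to -0.43). Xbp1 was at 126, 86.3 and 89.8 CPM (-0.48, -0.62 to -0.35). Atf4 was higher by 0.38 (0.25 to 0.53) in GFP-high, and Trib3, at 18.8, 24.6 and 26.1 CPM, by 0.45 (0.17 to 0.78).

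GFP-mid and GFP-high were within counting error of each other for all 10 genes. The myeloid sum was 2083 CPM in GFP-low, 1928 CPM in GFP-mid and 240 CPM in GFP-high. The fibroblast sum was 159, 192 and 296 CPM, with 10 of 19 tested markers at least 2-fold higher in GFP-high than in GFP-low, and 4 of 19 germ cell markers were at least 2-fold lower there. The part of these cells in the differences was not tested. The sort itself was visible in Pou5f1, at 83.9, 176 and 367 CPM. Of the 190 list genes, 14 rose at least 2-fold and 3 fell in GFP-high, 8.95% in all, near the 9.54% of all genes. Among them, named after their values were seen, were Eif2ak3, which encodes PERK (26.7 and 55.5 CPM in GFP-low and GFP-high, log2 ratio 1.03), and the amino acid transporter Slc7a5 (97.3 and 325 CPM, 1.73). All 21 genes on the tRNA synthetase list were below 0 in GFP-high, with a median of -0.28, and 12 of 21 were with ratios centred on the germ cell markers.

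**Figure D5:**
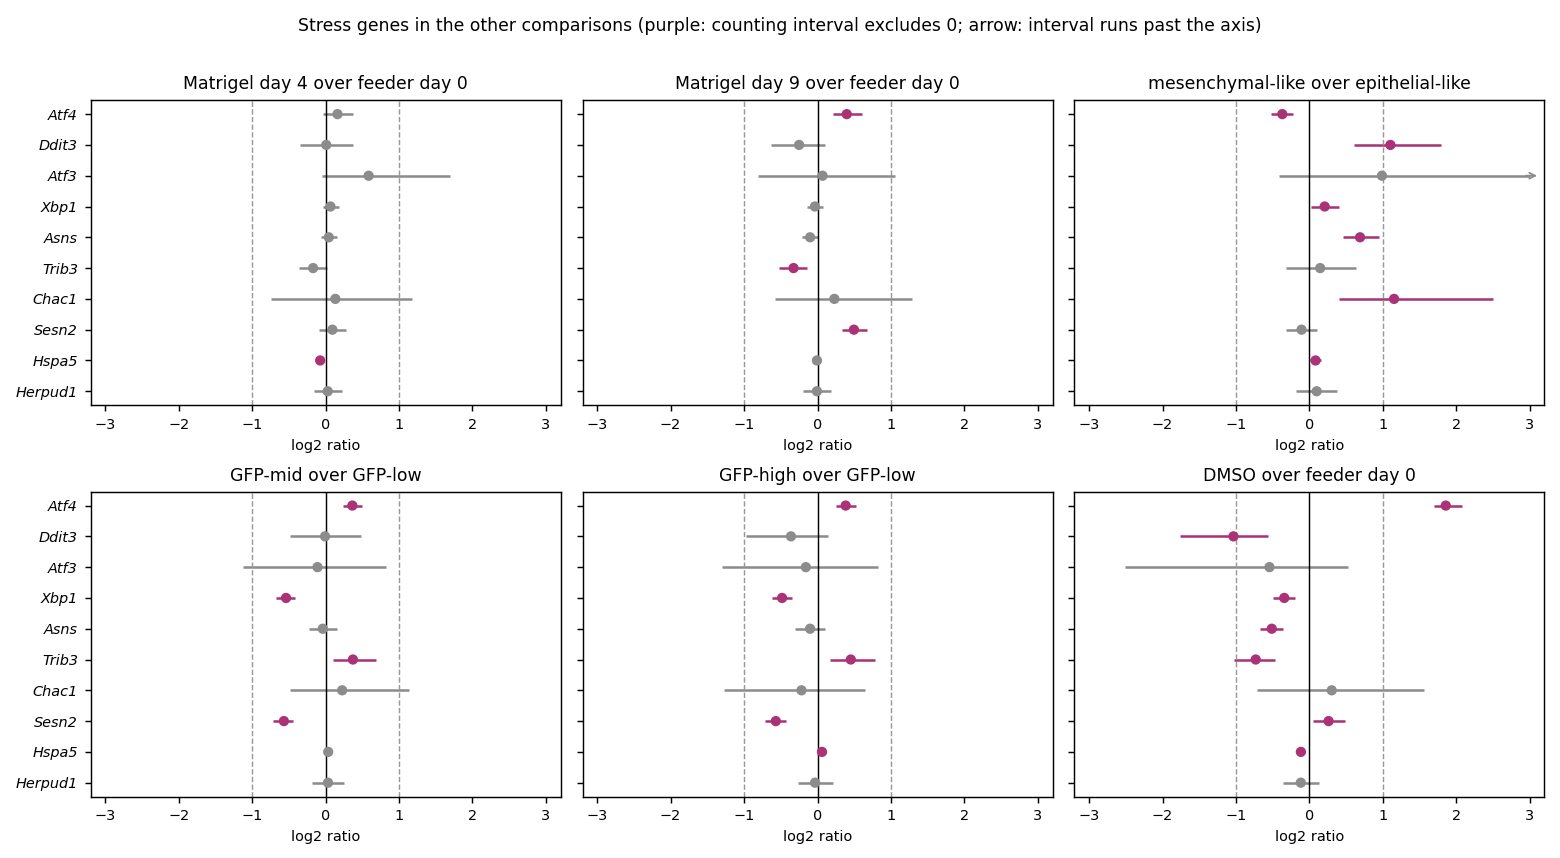
Log2 ratio of CPM + 1 (horizontal axes, points) with 95% counting intervals (lines) for the 10 genes in the 6 comparisons that do not involve UNC0638, with dashed lines at 2-fold and purple where the interval excludes 0. The mesenchymal-like over epithelial-like comparison has Ddit3 at 1.10 and Chac1 at 1.15, and the DMSO over feeder day 0 comparison has Atf4 at 1.86.

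The DMSO and day 0 libraries were both from cells on MEF without inhibitor. They differed in experiment and in the solvent, which the labels name for the DMSO library only, and these cannot be told apart. Atf4 was 3.69-fold higher with DMSO (log2 ratio 1.86, 1.69 to 2.08) and Ddit3 lower (-1.03, -1.76 to -0.57). These were 2 of 10 members past 2-fold, where 19.4% of all genes passed. With a pseudocount of 5, or with ratios centred on the germ cell markers, 1 of 10 passed, Atf4. The interval excluded 0 for 7 of the 10 (61.0% of all genes), with Trib3 at -0.73, Asns at -0.51, Xbp1 at -0.34, Hspa5 at -0.12 (0.03 with ratios centred on the germ cell markers) and Sesn2 at 0.26.

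Single genes of the pathway lists differed in both directions in the same pair. With DMSO, the ER chaperones Hyou1 (106 CPM against 15.7 CPM at day 0, a log2 ratio of 2.69) and Calr (385 against 149 CPM, 1.36) were higher, while Dnajb9, an ER cochaperone and XBP1 target, was lower (111 against 256 CPM, -1.21). The amino acid transporters Slc7a5 (106 against 23.7 CPM, 2.12) and Slc7a1 (98.4 against 29.0 CPM, 1.73) were higher. These 5 genes were named after their values were seen, from 22 of 190 list genes past 2-fold, 11.6% against 19.4% of all genes. The fibroblast sum was 397 CPM at day 0 and 3782 CPM with DMSO, and its part in these differences was not tested.

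On the scale of CPM + 1, Ddit3 and Chac1 had a 2-fold range within an experiment, and Atf3, on few counts, came close (0.99). For Ddit3 and Chac1 the genes with the nearest profile were looked up. Likeness was the root mean square distance of log2 CPM, centred within each experiment, over the 12 libraries. For Ddit3 the nearest of 9597 genes that averaged 10 CPM or more were Gipc1 (distance 0.114) and Tpd52 (0.115), against a median distance of 0.367. For Chac1 the nearest of 9598 were B4galt1 (0.111) and Reep3 (0.117), against a median of 0.338. The nearest of many genes lies below the median by construction, and Chac1 rests on only 10 to 41 counts in a library. Gipc1 was at 43.4 CPM in the epithelial-like and 89.8 CPM in the mesenchymal-like library, and Reep3 at 22.1 and 42.0 CPM.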

How the data were processed

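RNA from cultured germline stem cells was made into 12 libraries by a modified Smart-seq2 procedure, per the labels' protocols. The reads were trimmed with Trim Galore and quantified with RSEM on mm10, per the submitters' processing notes; the aligner, the versions and the annotation release are not given in the sources used here. The authors deposited a table per library with an expected count, RSEM's estimated number of reads per gene, not normalized, and a TPM, in which the authors allowed for gene length and set all libraries to the same total. The 4 ATAC-seq libraries were not analysed here.

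Expected counts were rounded to whole numbers; those of the 10 genes were already whole in all 12 libraries, and each gene had 1 transcript, so splice forms such as that of Xbp1 were not separated. CPM used TMM factors (0.912 to 1.07) from edgeR 4.0.16 in R 4.3.3. Libraries were compared as log2 ratios of CPM + 1 over 14301 genes, and 2-fold was the call; the pseudocount, 1, makes the changes of low genes look smaller. Intervals are 95% Clopper-Pearson, from the split of reads, without pseudocount. A level of 3 counts, the floor, was 0.238 to 0.724 CPM. With 1 library per group no test between groups was possible, and no trend over dose was fitted; DESeq2 1.42.0 gave size factors only. On simulated counts for 2 µM against DMSO, 200 of 200 changed genes were called and 60 of 14101 unchanged ones. These numbers were not split by size of change or by gene level. How the 2-fold call works for low genes such as Ddit3, Chac1 and Atf3 was not tested.

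The 10 genes and all lists were chosen with earlier results of these data known. Named are the 10 genes, the 3 highest and 3 lowest genes of a list by the 2 µM or the mesenchymal-like ratio with at least 50 counts in the higher library, the 2 genes nearest in profile to each member with a 2-fold range, and marker genes (Ddx4, Pou5f1); others are said to be named after their values were seen. Of 272 list entries, 270 matched the tables. Older symbols were matched through RefSeq (GRCm38.p6). Alternatives were DESeq2 size factors, total counts, TPM, pseudocounts of 0.1 and 5, other filters and centring on germ cell markers. Python 3.11.15 was used with scipy 1.17.1, pandas 2.3.3, matplotlib 3.10.9 and numpy 2.4.6.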

Additional observations from a re-analysis of the deposited data

How the results depend on the processing

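With 1 library per group, no replicate could be left out. No paired analysis was possible because each RNA group has 1 library. The count of the 10 genes past 2-fold changed with the pseudocount where few counts lay behind a gene. With 0.1 it was 1 at 0.5 µM (Atf3, on 6 and 15 counts) and 1 at 1 µM (Ddit3), against 0 with 1. For the mesenchymal-like pair it was 3 with 0.1, with DESeq2 size factors and with germ cell centring, where Atf3 (1 and 6 counts) joined Ddit3 and Chac1. With 5 it was 0 for the mesenchymal-like against the epithelial-like library, against 2, and 1 (Atf4) for DMSO against day 0, against 2. Centring on the germ cell markers also left 1 there (Atf4). No call changed direction. Of 90 ratios of the 10 genes, 90 stayed within their counting interval with DESeq2 size factors and with either pseudocount, 88 with total counts, 82 with TPM and 67 with germ cell centring, which shifted the median of all genes by more than 0.1 in 6 comparisons (-0.17 to 0.28). TPM shifted it by 0.11 at day 9 and 0.13 in GFP-high. Signs changed for 19 ratios with centring, none above 0.22 in size, and for 9 with TPM, none above 0.10. Of 42 ratios whose interval excluded 0, the moved interval held 0 for 2 with total counts, 2 with TPM, 2 with centring and 0 with DESeq2 size factors. The background share over the 9 comparisons was 2.28% to 19.4%, 0.119% to 9.08% with a pseudocount of 5, 7.17% to 25.3% with 0.1, 1.7% to 11.3% without a filter and 0.302% to 15.7% with a filter at 10 CPM. Depth limits Atf3 and Chac1 most, at 1 to 45 and 10 to 41 counts.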
